A study of Mus musculus with 42 samples.

Results

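The ganglion difference between nodose ganglion (NG) and dorsal root ganglion (DRG) was compared before and after neurons were captured, on 22 of the 42 samples of the series, all hybridised to MG-U74Av2 arrays. The samples were chosen by title and array type, and they form 4 groups of BALB/c mice, an inbred strain, kept under normal standard housing: whole DRG (n = 5), whole NG (n = 7), captured DRG neurons (n = 5) and captured NG neurons (n = 5). No allele, agent or age is given in the labels for any group. Whole ganglia were lysed and their total RNA was labelled. About 150 neurons per captured sample were cut out by laser microdissection and their RNA was amplified before labelling, with about 12 µg entering the labelling reaction in both cases. Neuron capture and RNA amplification therefore changed together, and their parts in every value given here cannot be told apart. The sample descriptions name laser capture for all samples, and the extraction protocol, which names whole ganglia for 12 of them, was followed. The labels do not tie the samples of a group to different animals, and the p-values therefore cover the variation among the samples at hand, part or all of which may be technical.

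Both ganglia hold the cell bodies of primary sensory neurons wrapped by satellite glial cells, with Schwann cells around the axons, blood vessels and connective tissue. DRG neurons are derived from the neural crest and serve touch, proprioception, temperature and pain, while most NG neurons are derived from an epibranchial placode and carry vagal information from the viscera. A lysate of a whole ganglion mixes the RNA of all these cells, and capture of cell bodies is meant to enrich that of the neurons. In such pooled samples, fewer cells of a type and less RNA per cell cannot be told apart.

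The quantity analysed was an interaction. For each probe set (a group of short oligonucleotides that reads 1 transcript) the log2 difference NG minus DRG in whole ganglia was subtracted from the same difference in captured neurons. A positive interaction means that NG gained on DRG with capture, and a negative interaction that DRG gained on NG. Signals are MAS5 intensities after all arrays were scaled to the same 2% trimmed mean, and log2 values were taken after adding a pseudocount of 11.37. Each value is followed by its standard error (SE) from the limma fit of the 4 groups, and adjusted p-values are from limma with Benjamini-Hochberg adjustment over all 8309 probe sets that passed the brightness filter, and values under 0.05 were called. Genes are represented by their brightest probe set on average.

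The arrays differed in more than the groups' names. Before scaling, the trimmed means ran from 174.9 to 408.3. The log2 ratio of the 3 prime to the 5 prime beta actin probe set, which is higher for shortened or degraded RNA copies, was 2.26 to 3.44 in whole ganglia, 5.28 to 5.66 in captured DRG and 5.58 to 6.197 in captured NG. Replicates within a group correlated at 0.942 to 0.983 over probe sets, and the whole NG array numbered 73 stood apart from the other NG arrays. The summed signal of 11 neuron markers was 30930 to 40780 in whole ganglia and 35020 to 40480 in captured neurons, so that the ranges overlapped. Of the non-neuronal marker lists, that of myelinating Schwann cells held 7 genes tested, Mobp among them. They summed to 5563 to 8648 in whole ganglia and 2414 to 3717 in captured neurons. The 13 macrophage and lymphocyte markers summed to 1349 to 2981 and 830 to 1644 in the same order. The 9 satellite glia markers were still bright after capture, at 11660 to 14490 in captured DRG and 11060 to 11830 in captured NG, against 10830 to 16290 in whole ganglia. No marker was at 0, since the lowest deposited signal was 0.137. Signal of these markers was thus present in the captured samples, and its part in the results was not tested.

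With capture, 6 of 13 large-afferent genes and 4 of 7 nociceptor genes shifted toward DRG with a called interaction, against 11.1% of all 6261 genes. With the same median on every array the counts were 5 and 3, and with no scaling 4 and 2. The genes that shifted included the sodium channel Scn1a, whose NG minus DRG difference went from -0.73 to -4.44. The substance P precursor Tac1 went from -1.12 to -4.02. The nociceptor sodium channel Scn10a went the other way and lost its DRG side (-0.54 to 0.017). The mannosidase Man1a (1.22 to 3.97) and the transcription factor Tbx3 (1.70 to 3.10) became more NG-sided. The adenylyl cyclase Adcy8 changed from the DRG to the NG side (-0.69 to 2.17), and the protease Prss12 from the NG to the DRG side (0.61 to -2.03). The difference of the myelin gene Mobp was no longer called (-4.24 to -0.71).

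The interaction passed the threshold for 1512 of 8309 probe sets (18.2%), 641 of them positive (7.71%) and 871 negative (10.5%), and for 1210 of 6261 genes (19.3%). Of these genes, 516 were positive (8.24% of those tested) and 694 negative (11.1%), and the interaction was at least 2-fold for 148 positive and 348 negative genes. The excess of negative calls depended on the scaling. Negative calls made up 57.6% of called probe sets as reported, 53.9% after quantile normalization, 40.1% when every array had the same median and 30.7% with no scaling. With equal medians, the median interaction over all probe sets moved from -0.020 to 0.096, so a small interaction of either sign should be read against that shift. Across the 6261 genes, the whole and the captured difference correlated with a Pearson r of 0.453, which describes genes that share libraries and are not independent replicates. The standard deviation over genes was 0.52 for the whole and 0.62 for the captured difference.

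Called genes were sorted by what happened to the ganglion difference, which itself passed the threshold for 29.9% of genes in whole ganglia and for 29% in captured neurons. It reversed in 150 genes (2.4% of those tested), where both differences were called with opposite signs. It grew in 85, where both were called with the same sign and the captured one was larger, and appeared in 478, where only the captured one was called. It shrank in 29 and was lost in 395, where only the whole one was called. A further 73 genes had a called interaction with neither difference called or in no other class. The reversed genes comprised 96 that were higher in NG before capture and higher in DRG after it, and 54 that went the other way. Arrays of the 2 ganglia did not overlap in either comparison for 39 of the 150 reversed genes, against 5.4% of all 6261 genes. The classes were chosen on the same differences, so nothing is read from that count.

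**Figure D1:**
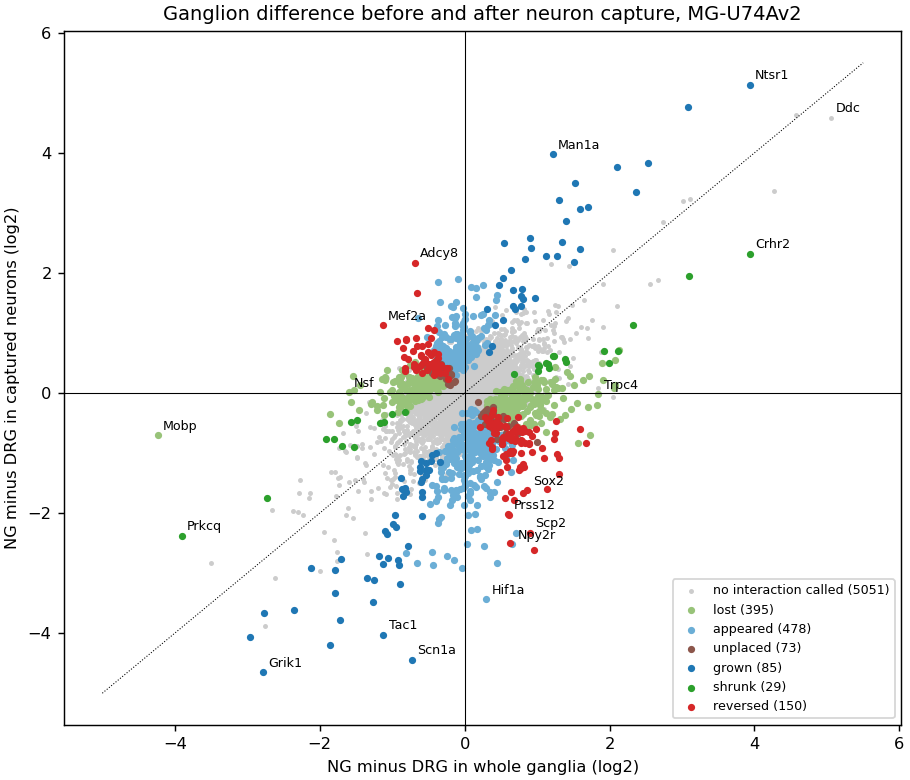
Each point is 1 of 6261 genes, with the log2 difference NG minus DRG in whole ganglia on the x axis and in captured neurons on the y axis; the dotted line marks equal differences and colours mark the class of the interaction. The 150 reversed genes lie in the upper left and lower right quadrants, and the 85 grown genes lie steeper than the line, with Scn1a at -0.73 and -4.44 and Man1a at 1.22 and 3.97.

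Among the 54 genes that were higher in whole DRG and became higher in captured NG, Adcy8 had the largest interaction. It encodes a calcium-stimulated adenylyl cyclase, which makes cyclic AMP. Its signals in ascending order were 225, 298, 298, 305 and 351 in whole DRG and 156 to 219 (median 174) in whole NG. After capture they were 117, 136, 178, 205 and 209.8 in DRG and 582, 631, 854, 888 and 1049 in NG. The ganglia did not overlap on either side: DRG was higher in whole tissue and every captured NG array stood above every captured DRG array. The difference went from -0.69 in whole ganglia to 2.17 in captured neurons, an interaction of 2.86 ± 0.23 (adjusted p = 2.01e-09). NG rose by 2.07 with capture and DRG fell by 0.78 on the log2 scale.

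Rgs7, a regulator that speeds the shut-off of G proteins in neurons, followed the same course with less spread. Whole DRG gave 737, 789, 889, 923 and 1003 and whole NG 538 to 654 (median 616). Captured DRG gave 300.3, 347, 378, 423 and 423, and captured NG 704, 746, 818, 821 and 914. The groups did not overlap in either comparison, and the captured NG level was close to that of whole DRG. The interaction was 1.58 ± 0.16 (adjusted p = 9.05e-08), made mostly by DRG, where the signal fell by 1.19 with capture.

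Mef2a, a transcription factor of the MADS box family that acts in muscle and neurons, read 1052, 1232, 1358, 1383 and 1390 in whole DRG against 498 to 684 (median 566) in whole NG. Captured DRG read 566, 595, 598, 746 and 878 and captured NG 986, 1330, 1468, 1799 and 2004. Neither pair overlapped, and the 2 ganglia changed places almost exactly, from -1.13 to 1.13. The interaction was 2.26 ± 0.21 (adjusted p = 3.59e-08).

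Xist, the long noncoding RNA of the inactive X chromosome of female cells, was also in this class. Its signals were 388, 465, 517, 533 and 555 in whole DRG and 236 to 461 (median 295) in whole NG, where the array numbered 73 overlapped the DRG range. In captured neurons they were 133, 155, 196, 233 and 264 in DRG and 418, 451, 544, 841 and 1112 in NG, with no overlap. The interaction was 2.31 ± 0.30 (adjusted p = 5.73e-06). All 22 arrays thus held Xist signal of at least 133, whereas the probe sets of the Y-linked genes Kdm5d, Eif2s3y and Uty stayed at or below 33.2 on every array.

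The other positive reversals were smaller. Cacng2, an auxiliary subunit of AMPA receptors, went from -0.94 to 0.87. Lxn, an inhibitor of carboxypeptidases that marks a subset of sensory neurons, went from -0.80 to 0.91, and Lipa, the lysosomal acid lipase, from -0.81 to 0.88. Alcam, an adhesion molecule on growing axons, went from -0.43 to 1.04. The interactions of these 4 genes lay between 1.47 and 1.81. Tubb3, the neuronal beta tubulin, had a small called interaction of 0.47 ± 0.12, and its other probe set gave -0.10 with an adjusted p of 0.619.

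The 96 genes that were higher in whole NG and became higher in captured DRG included Prss12, which encodes neurotrypsin, a protease secreted at synapses. Whole DRG gave 183, 200.5, 203, 223 and 255 and whole NG 298 to 372 (median 318). After capture DRG gave 336, 343, 357, 402 and 520.1 and NG 67.0, 70.2, 76.9, 97.0 and 134. Neither pair overlapped. With capture, DRG rose by 0.84 and NG fell by 1.80, which made an interaction of -2.64 ± 0.21 (adjusted p = 2.01e-09).

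Tob1, an antiproliferative protein that links transcripts to the deadenylation machinery, read 139, 244, 245, 249 and 262 in whole DRG and 223 to 453 (median 348) in whole NG. It read 100.4, 109.8, 110.3, 126 and 144 in captured DRG and 9.91, 15.6, 21.3, 28.2 and 31.4 in captured NG. The whole groups overlapped by 1 NG array and the captured groups did not overlap. Capture lowered Tob1 in both ganglia, by 0.87 in DRG and 3.48 in NG, and the interaction was -2.62 ± 0.27 (adjusted p = 1.97e-07). The whole-ganglion difference of 0.59 was not called with no scaling, with equal medians or when the whole DRG array numbered 37, the lowest, was left out, and Tob1 then counted as appeared.

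Among reversed genes above the median signal, Scp2 and Itgav had the largest negative interactions. Scp2, a sterol carrier protein of peroxisomes, gave 274, 282, 283, 352 and 397 in whole DRG and 369 to 1073 (median 599) in whole NG. It gave 368, 420.2, 438, 527 and 566 in captured DRG and 56.0, 63.5, 65.7, 123 and 125 in captured NG. The NG arrays, higher on most whole samples, were all below DRG after capture, and the interaction was -3.23 ± 0.31 (adjusted p = 6.60e-08). A second, dimmer Scp2 probe set had a smaller negative interaction of -0.98 and was lost rather than reversed.

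Itgav, the alpha V subunit of integrins that bind matrix proteins, gave 726, 804, 1054, 1074 and 1113 in whole DRG and 1020 to 1961 (median 1544) in whole NG. It gave 879.5, 1166, 1227, 1334 and 1414 in captured DRG and 161, 182, 191, 203 and 289 in captured NG. The ganglia overlapped in whole tissue and not after capture. The DRG change with capture, 0.33, was not called, and NG fell by 2.79. The interaction was -3.13 ± 0.24 (adjusted p = 1.63e-09), and a dimmer Itgav probe set gave -1.06, in the appeared class. Rxrg, the gamma retinoid X receptor, was dimmer and was added here after its values were seen. It had an interaction of -3.57 ± 0.37, from 0.95 in whole ganglia to -2.62 in captured neurons.

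Of the remaining negative reversals, Midn, a nuclear protein that takes part in protein degradation, went from 1.13 to -1.61, and Nr2f2, an orphan nuclear receptor that acts in veins and developing neurons, from 1.30 to -1.36. Adhesion, signalling and channel genes belonged here as well. Nrcam, a cell adhesion molecule of axons and nodes of Ranvier, went from 0.58 to -1.23. Cdh2, N-cadherin, went from 0.78 to -0.60, and Rgs2, a regulator of G protein signalling, from 1.25 to -0.66. Kcnk2, the mechanosensitive potassium channel TREK-1, went from 0.51 to -0.85. Scg2, a secretogranin of dense-core vesicles, went from 0.36 to -0.79.

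How far a reversal rested on the processing differed between genes. Over 34 alternative settings, which include leaving out each array in turn, Adcy8, Lipa, Lxn, Mef2a, Midn, Nr2f2, Rgs7 and Xist were reversed in all 34. Prss12, Scp2, Itgav, Sox2, Cdh5, Eng and Cox7b were reversed in 33 of 34, the exception being unscaled values, where the whole difference was not called. Tubb3 was reversed in 14 of 34, Kcnk2 in 19, Alcam in 22, Nrcam in 23 and Cycs in 24. In the latter 4 genes the captured difference was called under these settings and the whole difference came and went.

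**Figure D2:**
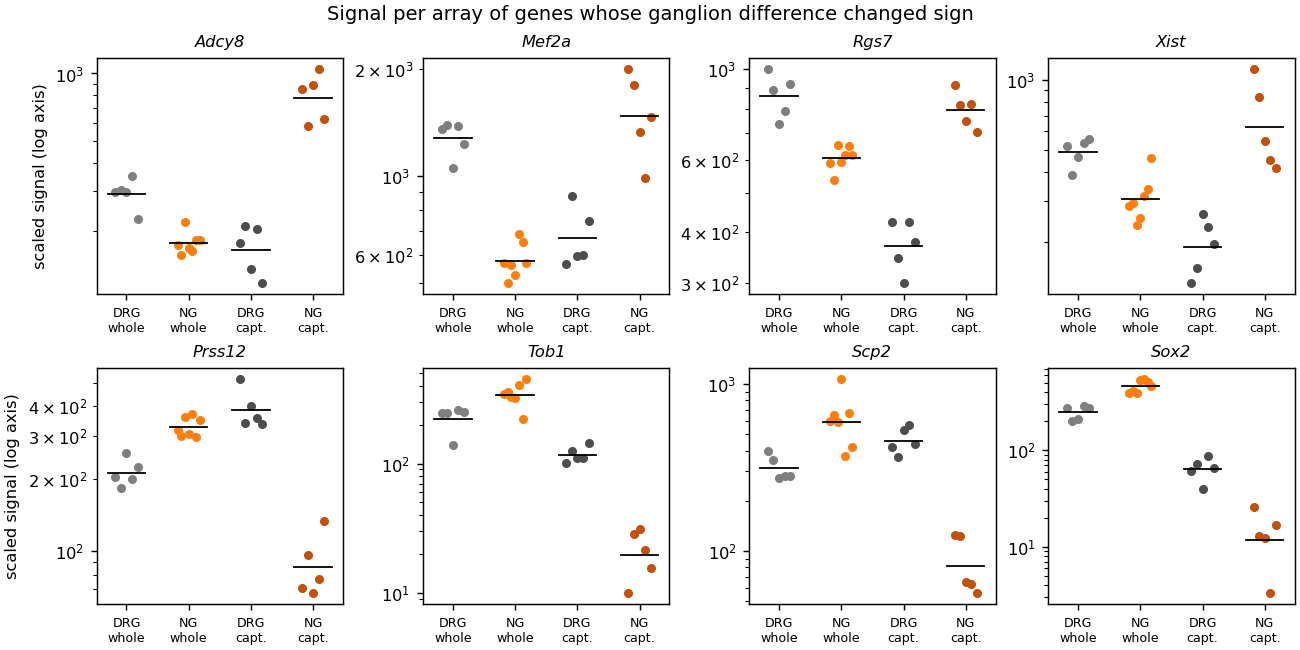
Scaled signal on a log axis for each array (points) and the geometric mean of each group (line) of 8 reversed genes, in whole and captured (capt.) DRG and NG. In the upper row, captured NG lies above captured DRG and whole NG below whole DRG for Adcy8, Mef2a and Rgs7 without overlap; in the lower row the order is the opposite.

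Genes that mark cells other than neurons were among the reversals. Sox2, a transcription factor of satellite glia, gave 199.8, 212, 273, 276 and 291 in whole DRG and 389 to 549.5 (median 463) in whole NG. After capture it gave 40.02, 60.4, 66.2, 72.3 and 86.7 in DRG and 3.29, 12.2, 12.9, 16.6 and 25.9 in NG. Capture lowered it in both ganglia, by 1.79 in DRG and 4.27 in NG, and the ganglia did not overlap in either comparison. The interaction was -2.48 ± 0.27 (adjusted p = 5.24e-07).

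Cdh5, the cadherin of endothelial junctions, gave 75.2, 125, 131, 132 and 168 in whole DRG and 143 to 246 (median 219) in whole NG. It gave 52.1, 55.5, 59.5, 63.3 and 105 in captured DRG and 5.78, 10.4, 12.3, 12.7 and 13.9 in captured NG. The whole groups overlapped, the captured groups did not, and the captured NG values lay near the pseudocount, so the fold there is understated. The interaction was -2.47 ± 0.27 (adjusted p = 4.68e-07). Eng, a co-receptor for TGF-beta on endothelium, went from 0.93 to -0.98, and Cldn5, a claudin of tight junctions, from 0.89 to -0.83. Kdr, the main VEGF receptor, went the other way, from an uncalled 0.45 to 1.63. Of 13 endothelial and mural markers tested, these 4 had a called interaction (30.8%, against 19.3% of all genes), and the summed signal of the 13 was 1293 to 1895 in whole DRG, 1695 to 3347 in whole NG, 991.4 to 1324 in captured DRG and 743.3 to 1304 in captured NG. The part of vessel cells in the reversals was not tested.

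Of 9 satellite glia markers, 3 had a negative and 1 a positive interaction, where 11.1% of all genes were negative and 8.24% positive. Gja1, the gap junction protein connexin 43, gave 748, 782, 833, 1027 and 1106 in whole DRG and 628 to 1325 (median 1011) in whole NG, which overlapped. Captured DRG gave 862, 914, 1105, 1119 and 1176 and captured NG 111, 126, 227, 264 and 396, with no overlap. NG fell by 2.16 with capture, the DRG change of 0.21 was not called, and the interaction was -2.37 ± 0.33 (adjusted p = 1.20e-05). Ptprz1, a receptor tyrosine phosphatase, had probe sets that disagreed, with a called 1.86 for the brighter and a called -1.13 for the dimmer. Apoe, an apolipoprotein made by glia, had a small interaction of -0.40 ± 0.13, a call lost on leaving out any of 8 of the 22 arrays. Of the 5 pan-glial markers, S100b (-0.76 ± 0.20) and Cd9 (-0.81 ± 0.16) were negative, and the sum over the 5 was 5548 to 6455 in captured DRG against 2662 to 3291 in captured NG, where whole DRG had 5308 to 6033 and whole NG 4301 to 5134. Every captured DRG array thus had a higher pan-glial sum than any captured NG array. Most of that sum came from 2 bright genes. Cd9 gave 3376 to 3994 in captured DRG and 1366 to 2147 in captured NG, and S100b 1061 to 1808 and 412 to 590. Only these 2 of the 5 had a called captured difference, and the list's median captured difference was -0.126. Neither of the 2 interactions was called with no scaling. The part of glial RNA in the interactions was not tested.

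The captured side of the reversals was read again on Mouse430_2 arrays, which held captured neurons of 9 DRG and 11 NG samples, with no whole ganglia. The labels call that RNA total RNA, and they do not say whether it was amplified. NG minus DRG was called there for 26.6% of 13973 genes. Of the 150 reversed genes 142 were measured, and 52 were called with the sign they had in captured neurons on MG-U74Av2, 3 with the other sign and 87 not at all. Some sample numbers occur on both array types, and with only the 6 NG and 4 DRG numbers that do not, 27 reversed genes were called with the captured sign and 7 with the other, against 18.3% of 14333 genes called in either direction.

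Adcy8 was called there with 2.20 ± 0.20 on all Mouse430_2 arrays (adjusted p = 4.10e-09) and 2.05 on the unshared numbers (adjusted p = 0.00043). Tob1 had -1.93 ± 0.22 and -2.50, and Prss12 -1.83 ± 0.21 and -1.87, in the same order and all called. Rxrg (-1.91 ± 0.22), Cacng2 (0.87 ± 0.16), Kcnk2 (-0.94 ± 0.19) and Scg2 (-0.71 ± 0.16) were called in both sets too. Itgav (-1.74 ± 0.31), Sox2 (-1.06 ± 0.21), Nrcam (-1.06 ± 0.12), Midn (-0.63 ± 0.21), Cycs (-0.53 ± 0.13), Lxn (0.42 ± 0.11), Alcam (0.42 ± 0.14) and Rgs2 (-0.66 ± 0.22) were called in the full set and not on the unshared numbers.

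For other reversed genes the captured difference was not called on Mouse430_2. Scp2 had -0.29 ± 0.14 (adjusted p = 0.157), and Mef2a had 0.32 ± 0.24 (adjusted p = 0.376). Xist had -0.16 ± 0.14, with an adjusted p of 0.459. The endothelial genes Cdh5 (-0.53 ± 0.28), Cldn5 (-0.17 ± 0.22) and Eng (-0.15 ± 0.21), the lysosomal Lipa (-0.078 ± 0.16) and Nr2f2 (-0.37 ± 0.25) were in the same position. Rgs7 had 0.29 ± 0.13 with an adjusted p of 0.0994, below the 1.08 of MG-U74Av2. The signs of Xist (1.66 on MG-U74Av2), Lipa (0.88 there), Cdh2 and Tubb3 were opposite on the 2 array types. On the unshared numbers Xist had -0.19 and Lipa 0.26, neither of them called. Cdh2 had 0.46 ± 0.19 on Mouse430_2 (adjusted p = 0.0799) against -0.60. Tubb3 had -0.28 ± 0.11 (adjusted p = 0.0617) against 0.24, and on the unshared numbers it was called on the DRG side, at -0.54 (adjusted p = 0.0236). Robustness to the settings on MG-U74Av2 and a call on the other array type therefore did not coincide, since Mef2a, Lipa, Nr2f2, Rgs7 and Xist had the former without the latter.

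**Figure D3:**
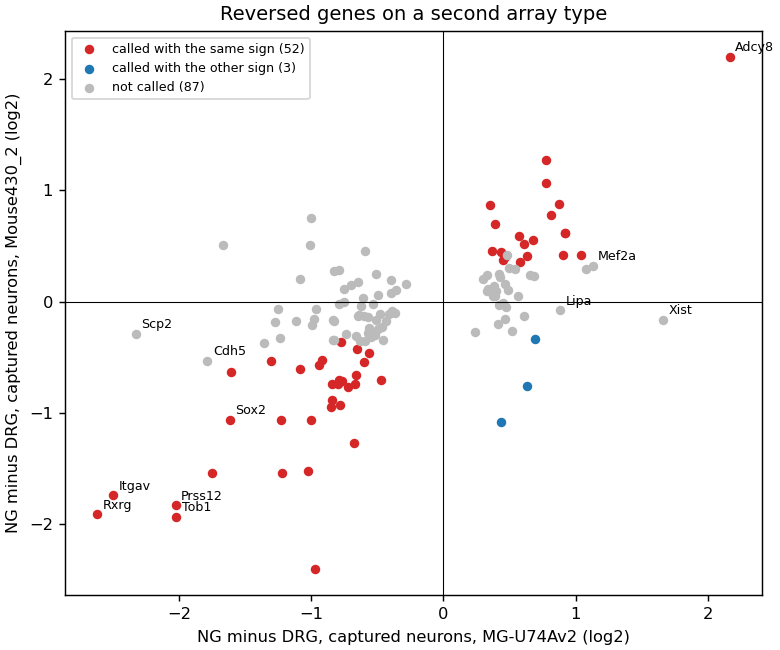
NG minus DRG in captured neurons (log2) on MG-U74Av2 (x axis) and Mouse430_2 (y axis) for the 142 reversed genes measured on both. Of these, 52 were called on Mouse430_2 with the same sign (red), 3 with the other (blue) and 87 not at all (grey), with Adcy8 at 2.17 and 2.20.

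The growing differences were of another kind, since they enlarged a contrast already present in whole tissue. Of 85 grown genes, 49 were on the DRG side and 36 on the NG side. Scn1a, the sodium channel Nav1.1 of large, fast-conducting afferents, had the largest interaction. Whole DRG gave 596, 679, 855, 861 and 862 and whole NG 339 to 864 (median 421). Captured DRG gave 668, 716, 723, 829.1 and 1074, whereas captured NG gave only 14.1, 23.2, 27.5, 32.4 and 34.3. The DRG change with capture was 0.052 and not called, NG fell by 3.66, and the difference went from -0.73 to -4.44. The interaction was -3.72 ± 0.27 (adjusted p = 5.43e-10), and the gene's second probe set gave -2.01, also called. The highest whole NG array, numbered 73, reached the DRG range, and the interaction without it was -3.56.

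Tac1, the precursor of substance P and a mark of peptidergic nociceptors, changed in opposite directions with capture, by 1.52 in DRG and -1.38 in NG. Its signals were 1309, 1335, 1513, 1566 and 1585 in whole DRG and 483 to 1200 (median 594) in whole NG. They were 3514, 3971, 4179, 4338 and 5187 in captured DRG and 54.7, 180.4, 273, 393 and 787 in captured NG. The ganglia did not overlap in either comparison, but the captured NG arrays spread widely. The interaction was -2.90 ± 0.53 (adjusted p = 0.000407). Gfra3, the artemin receptor of nociceptors, gave 400.2, 416, 460.1, 482 and 582 and 112 to 348 (median 194) in whole DRG and NG. It gave 1333, 1441, 2106, 2238 and 3102 in captured DRG and 81.3, 103, 139, 238 and 406 in captured NG, with no overlap and an interaction of -2.22 ± 0.43 (adjusted p = 0.000607).

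Jun, a transcription factor of the immediate early group that is also induced by axon injury, gave 516, 529, 714, 819.8 and 1038 in whole DRG and 226 to 605 (median 366) in whole NG. Captured DRG gave 850.5, 865, 1071, 1116 and 1133 and captured NG 114, 119, 129, 132 and 197. The whole groups overlapped, the captured groups lay far apart, and the interaction was -1.87 ± 0.28 (adjusted p = 3.29e-05). Other DRG-sided genes that grew were Grik1, a kainate receptor subunit (-2.78 to -4.65), Nefh, the heavy neurofilament (-0.59 to -2.05), and Frzb, a secreted Wnt antagonist (-1.72 to -3.79). Vcan, a matrix proteoglycan, went from -1.85 to -4.20, and Pcp4l1, a small Purkinje cell protein homologue, from -0.89 to -3.18. The Hox genes Hoxa7 (-2.76 to -3.66) and Hoxd1 (-2.35 to -3.61) grew as well. The interaction of Hoxd1 had an adjusted p of 0.0315, a call lost on leaving out any of 6 arrays.

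On the NG side, the difference of Man1a, a mannosidase of the Golgi that trims N-glycans, grew. Whole DRG gave 45.5, 49.7, 51.7, 69.1 and 93.0 and whole NG 112 to 223 (median 151). Captured DRG gave 2.62, 4.83, 6.04, 6.25 and 6.81, all below the pseudocount, and captured NG 140.1, 145, 294, 349 and 452. The ganglia did not overlap in either comparison, and the difference went from 1.22 to 3.97, an interaction of 2.76 ± 0.36 (adjusted p = 5.68e-06). Because captured DRG was so dim, the size of both values is set largely by the pseudocount. The interaction was 3.54 with the pseudocount at the 5th percentile of signals and 1.75 at the 40th, called in each case.

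Tbx3, a T-box transcription factor, gave 39.4, 42.2, 44.7, 50.1 and 67.1 in whole DRG and 148 to 240.0 (median 179) in whole NG. Captured DRG gave 15.9, 24.6, 33.1, 34.5 and 40.7 and captured NG 239, 296, 356, 393 and 409. Both comparisons were free of overlap, and the interaction was 1.40 ± 0.25 (adjusted p = 0.000292). Ntsr1, a receptor of the gut peptide neurotensin, went from 3.94 to 5.13. Its DRG signals lay at or near the pseudocount, at 7.42 to 15.4 in whole DRG and 12.5 to 18.8 in captured DRG, so these differences are not exact and understate the fold. Pbx3, a homeodomain cofactor of Hox proteins, went from 0.55 to 2.50, Tes, a focal adhesion protein, from 1.52 to 3.50, and Ptpro, a receptor tyrosine phosphatase, from 1.30 to 3.22. Cavin2, a coat protein of caveolae, went from 3.09 to 4.77, Fndc1 from 0.90 to 2.59, and the AMPA receptor subunit Gria2 from 1.51 to 2.18. The last had an interaction of only 0.67 ± 0.23, with an adjusted p of 0.0424, and was not called without any of 13 arrays. A dimmer Gria2 probe set had a called interaction of 1.01 (adjusted p = 0.00243), and the dimmest had an uncalled -0.45. H2-Aa, an MHC class II chain of antigen-presenting cells, also grew, from 1.12 to 2.29. Of the 13 macrophage and lymphocyte markers, H2-Aa was the only positive call and C1qa the only negative one (15.4% called, against 19.3% of all genes). The 13 summed to 1349 to 2308 in whole DRG and 2157 to 2981 in whole NG. After capture they summed to 830 to 1089 in DRG and 1283 to 1644 in NG, and their part in this result was not tested.

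The largest class was that of differences that appeared with capture, with 284 genes on the negative and 194 on the positive side. Hif1a, the oxygen-regulated transcription factor subunit, had the largest interaction in size of all the genes described here. Whole ganglia gave 921, 955, 1036, 1178 and 1547 in DRG and 1106 to 1800 (median 1237) in NG, which overlapped. Captured DRG gave 647, 750.0, 788, 1024 and 1077 and captured NG 45.7, 46.5, 79.0, 83.1 and 97.0. The DRG change with capture, -0.39, was not called, while NG fell by 4.13, and the interaction was -3.74 ± 0.26 (adjusted p = 3.05e-10).

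Npy2r, a receptor of neuropeptide Y and peptide YY on vagal and spinal afferents, was variable in whole NG. Whole DRG gave 1065, 1095, 1282, 1402 and 1826 and whole NG 835 to 3418 (median 2502). Captured DRG gave 1334, 1727, 1855, 2256 and 2823 and captured NG 200.1, 296, 304, 362 and 577. NG was thus the higher ganglion on most whole arrays and the lower one on every captured array. The whole difference of 0.65 missed the threshold (adjusted p = 0.0914). It passed, making Npy2r a reversed gene, without the whole NG array numbered 39, without the one numbered 73, or with array weights. The interaction was -3.17 ± 0.42 (adjusted p = 7.05e-06).

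Kcna1, a voltage-gated potassium channel of large myelinated axons, gave 1682, 1779, 1938, 2034 and 2223 in whole DRG and 1046 to 1992 (median 1442) in whole NG. It gave 368, 579.8, 619, 719 and 809 in captured DRG and 12.7, 63.4, 91.8, 104 and 177 in captured NG. The ganglia overlapped in whole tissue only. Kcna1 fell with capture in both, more in NG, and the interaction was -2.43 ± 0.44 (adjusted p = 0.000346). Further genes whose DRG side appeared were Nefm, the medium neurofilament (-0.33 to -2.06), Ntrk3, the neurotrophin-3 receptor of proprioceptors (-0.12 to -1.65), and Hmx1, a homeodomain factor (-0.45 to -2.65). Gabrb1, a GABA-A receptor subunit, went from -0.24 to -2.71, and Gal, the neuropeptide galanin, from 0.28 to -0.75. A dimmer Gal probe set had an uncalled interaction of -0.48. Adcy7, an adenylyl cyclase unlike Adcy8 in its regulation, went from -0.36 to -2.09. Aldh1a1, a retinaldehyde dehydrogenase, went from 0.45 to -2.83 on 1 probe set and had no called interaction on a dimmer one.

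An NG side appeared for channel subunits and regulators. Kcnab1, a beta subunit of potassium channels, went from 0.25 to 1.80, and Cacna2d3, an auxiliary subunit of calcium channels, from -0.27 to 1.13. Satb1, a chromatin organiser, went from -0.64 to 1.24, and Kdm6a, an X-linked histone demethylase, from 0.089 to 1.76. Nsmf, a messenger from synapse to nucleus, went from -0.19 to 1.45, and Apbb2, an adaptor of the amyloid precursor protein, from -0.12 to 1.51. Cyp4v3, a fatty acid hydroxylase, went from 0.15 to 1.75. On Mouse430_2, Kcnab1, Cacna2d3, Apbb2 and Cyp4v3 were called on the NG side in both the full and the unshared set, Satb1 and Kdm6a in the full set, and Nsmf in neither.

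**Figure D4:**
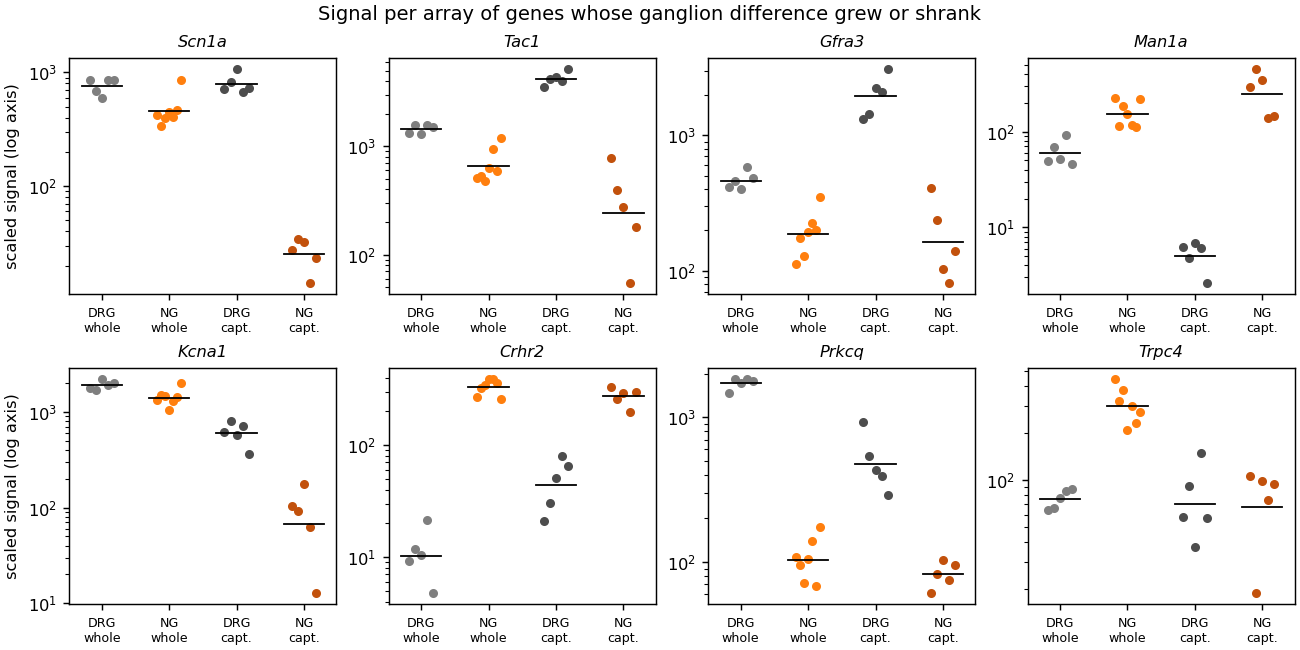
Scaled signal on a log axis for each array (points) and the geometric mean of each group (line) of 8 genes whose ganglion difference became larger (Scn1a, Tac1, Gfra3, Man1a, Kcna1) or smaller (Crhr2, Prkcq, Trpc4) with capture. In captured NG, Scn1a lies between 14.1 and 34.3 on all 5 arrays, and in captured DRG between 668 and 1074.

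Differences that shrank while keeping their sign were few. Crhr2, a receptor of urocortins, gave 4.76, 9.33, 10.4, 11.7 and 21.5 in whole DRG and 259.5 to 390.4 (median 346) in whole NG. Captured DRG gave 21.2, 30.3, 51.1, 65.2 and 80.2 and captured NG 199, 257, 291, 300.5 and 332. NG stayed higher without overlap, and the smaller difference came from DRG, where the dim signal rose by 1.35. The interaction was -1.62 ± 0.31 (adjusted p = 0.000575), and -1.02 with the pseudocount at the 40th percentile.

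Prkcq, the theta isoform of protein kinase C, marked DRG. Whole DRG gave 1459, 1717, 1784, 1838 and 1840 and whole NG 68.6 to 175 (median 105). Captured DRG gave 291, 389.9, 429.7, 536 and 927 and captured NG 60.8, 75.3, 82.2, 95.5 and 104. The ganglia did not overlap in either comparison. The difference went from -3.91 to -2.38 because DRG fell by 1.83 with capture, and the interaction was 1.53 ± 0.32 (adjusted p = 0.00119). A dimmer Prkcq probe set had an uncalled interaction of 0.83 (adjusted p = 0.138). Others that shrank were the transcription factor Cux2 (1.99 to 0.49), the prohormone convertase Pcsk1 (1.92 to 0.70) and the phosphatase inhibitor Ppp1r1a (-1.91 to -0.76). Scg3, a granin-family protein, went from -1.48 to -0.45, and Myl1, a light chain of fast skeletal muscle myosin, from 3.09 to 1.94. Nrp1, a semaphorin receptor, went from -1.17 to -0.50, but its dimmer probe set had a called interaction of -1.22 in the opposite direction.

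Of the 395 differences that were lost, 212 had a negative and 183 a positive interaction. Mobp, a myelin protein, was the extreme case. Whole DRG gave 142, 164, 266, 449 and 474, whereas whole NG gave 1.63 to 5.16 (median 3.30), near the lowest signals of the array. Captured DRG gave 2.62, 3.78, 4.04, 5.12 and 156 and captured NG 2.43, 2.86, 3.03, 4.18 and 6.43. The captured DRG array numbered 3 alone kept a bright signal, and without it the interaction of 3.53 ± 0.63 became 4.22. Mobp was counted in the list of myelinating Schwann cells, although its name refers to oligodendrocytes. It was the only 1 of the 7 listed genes tested with a called interaction (14.3%, against 19.3% of all genes).

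Nsf, the ATPase that takes SNARE complexes apart after vesicle fusion, gave 945, 1158, 1271, 1280 and 1429 in whole DRG and 308 to 535 (median 396) in whole NG. Captured DRG gave 424, 554, 569.6, 578 and 1113 and captured NG 319, 556, 719, 730.5 and 948, which overlapped. The difference went from -1.60 to 0.0087 as DRG fell and NG rose, with an interaction of 1.61 ± 0.32 (adjusted p = 0.000829). Trpc4, a cation channel downstream of receptors, gave 64.2, 66.1, 77.1, 85.4 and 87.3 in whole DRG and 209 to 446 (median 299.8) in whole NG. Captured DRG gave 37.4, 56.8, 58.3, 92.1 and 149 and captured NG 18.8, 74.1, 94.7, 98.9 and 106, with overlap only after capture. Its NG side disappeared as NG fell by 1.94 with an uncalled change of -0.073 in DRG, and the interaction was -1.87 ± 0.42 (adjusted p = 0.00223).

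Further NG-sided differences that were lost were those of the interferon-induced genes Gbp3 (1.21 to -0.35), Ifit3 (0.9998 to -0.085) and Igtp (1.25 to 0.24), and of Ifi35 (2.08 to 0.13). Fos, an immediate early gene, went from 0.92 to -0.53, and C1qa, a complement subunit of macrophages, from 1.23 to -0.20 with an adjusted p of 0.024, a call lost on leaving out any of 3 arrays. The lipid genes Lpl (1.73 to -0.70), Thrsp (1.56 to -0.84) and Pdk4 (1.70 to -0.23) had wide errors, and the call of Lpl was lost on leaving out any of 17 arrays. For Lpl and Thrsp the NG side was carried by the same 3 of 7 whole NG arrays, numbered 23, 26 and 46. Lpl read 889, 448 and 556 on them and 27.0 to 83.7 on the other 4, and Thrsp read 1775, 709.6 and 1036 against 138 to 189. Pdk4 read 643, 563.9 and 328 there and 195 to 388 on the others, which overlapped. These 3 arrays also had the highest beta actin ratios of whole NG (3.14, 3.29 and 3.44) and the lowest trimmed means before scaling (174.9, 202.1 and 182.6), and the part of these in the result was not tested. DRG-sided differences that were lost included those of the GABA-A subunit Gabra2 (-1.86 to -0.34), the transcription factors Ebf3 (-1.11 to -0.087) and Klf7 (-0.77 to 0.16), and the nociceptor sodium channel Scn10a (-0.54 to 0.017). A dimmer Ebf3 probe set had a whole difference of only -0.15 and an uncalled interaction of 0.39.

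Some of the genes with wide NG-sided differences had no called interaction. Ddc, which makes dopamine and serotonin from their precursors, had 5.05 in whole ganglia and 4.58 after capture. Htr3a, the ion channel receptor of serotonin, had 3.02 and 3.19, and Gpr65, a proton-sensing receptor of vagal afferents, 4.57 and 4.62. Syt17, a synaptotagmin, had 4.27 and 3.37, and Cckar, the receptor of cholecystokinin, 2.11 and 1.45. Their interactions were -0.47 ± 0.33, 0.18 ± 0.18, 0.054 ± 0.29, -0.90 ± 0.43 and -0.65 ± 0.26 in the same order. A missed threshold does not show that the differences were equal. The interaction of Cckar was called after quantile normalization (-0.78, adjusted p = 0.0318) and with array weights (-0.77, adjusted p = 0.0333). It was also called without the captured DRG array numbered 3 (-0.87, adjusted p = 0.0047). For Gpr65 the DRG signals lay at or near the pseudocount, at 5.66 to 20.2 in whole DRG and 4.19 to 11.9 in captured DRG. Its differences are therefore not exact and understate the fold.

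Grouped by function, the genes that shifted toward DRG with capture included those of large-diameter afferents. Of 13 measured, 6 had a negative interaction and 0 a positive one: Scn1a, Kcna1, Nefm, Ntrk3, Nefh and Nefl (-0.75 ± 0.22), the last not called with equal medians. The list's median interaction was -0.623, against -0.023 over all 6261 genes, of which 11.1% were negative. With equal medians 5 of the 13 were negative, and with no scaling 4. Among 7 small-diameter nociceptor genes, 4 were negative (57.1%), including Tac1, Gfra3 and Gal, and Scn10a was positive. With equal medians 3 of the 7 were negative, and with no scaling 2. Of 12 neuropeptide genes, 5 were negative, which became 3 with equal medians and 1 with no scaling. The only positive 1 was Nppb (0.81 ± 0.28), the natriuretic peptide of itch neurons. Its call was lost with no scaling or on leaving out any of 14 arrays. Tac1 and Gal are in both lists.

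Receptors and channels had called interactions of both signs, to be read against 8.24% positive and 11.1% negative genes in all. Of 21 visceral and gut hormone receptors, 4 were positive and 5 negative, with Ntsr1 and Npy2r at the ends. The positive Htr1d (0.97 ± 0.30) and Oprk1 (0.80 ± 0.26) had neither ganglion difference called, and their calls were lost on leaving out any of 3 and of 12 arrays, in that order. The prostacyclin receptor Ptgir (-1.14 ± 0.20) was negative. Of 25 sodium, potassium and calcium channel genes, 5 were positive and 3 negative, and of 20 ligand-gated channel genes 2 (10%) and 3 (15%), close to the shares over all genes. Of 32 genes of signalling below receptors, 5 were positive and 7 negative, and 5 of the 12 were reversals, Adcy8 and Rgs7 among the positive and Rgs2 among the negative.

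Over all genes 19.3% had a called interaction, and the share among patterning factors was 28.6% for those of placode and visceral neurons, 45.5% for somatosensory ones and 10.5% for Hox genes. Of 7 placode and visceral neuron factors, Tbx3 was positive and Gata3 (-0.82 ± 0.29, adjusted p = 0.0477) negative, the latter call being lost on leaving out any of 17 arrays. Of 11 somatosensory transcription factors, 3 were positive, namely Ebf3, Klf7 and Ebf1 (0.87 ± 0.20), and 2 negative, Hmx1 and Cux2. Of 19 Hox genes, Hoxa7 and Hoxd1 were negative and 0 positive. Of 36 axon guidance and adhesion genes, 3 were positive (Alcam, Sema3e and Nrp1) and 5 negative, led by Nrcam and Cdh2, or 22.2% in all.

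Housekeeping groups also held interactions. Of 56 nuclear genes of the respiratory chain, 17 were negative (30.4%, against 11.1% of all genes) and 3 positive (5.36%, against 8.24%). Cox7b, a subunit of cytochrome oxidase, reversed: whole DRG gave 115, 135, 143, 168 and 202 and whole NG 178 to 326 (median 228). Captured DRG gave 289, 377, 410.0, 416 and 525 and captured NG 80.7, 105, 108, 134 and 186. The ganglia overlapped in whole tissue and not after capture. DRG rose by 1.34, NG fell by 0.95, and the interaction was -2.29 ± 0.26 (adjusted p = 8.37e-07). Cycs, cytochrome c, reversed from 0.49 to -1.31, and Uqcr11, a subunit of complex III, was lost, from 2.06 to 0.078. Sdhb (0.50 ± 0.15), Atp5g2 (0.74 ± 0.25) and Uqcrc2 (0.97 ± 0.26) were positive, and the call of Atp5g2 was lost on leaving out any of 15 arrays. The count of negative members was 11 with equal medians and 4 with no scaling, and it was 18 with the beta actin ratio as a covariate. Of 23 cytosolic ribosomal protein genes, 8 were negative, led by Rpl37a (-1.44 ± 0.27), and 0 positive. These counts became 4 and 1 with equal medians, and 1 and 0 with no scaling.

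The counts of the remaining lists stand beside 8.24% positive and 11.1% negative genes in all. Of 24 immediate early and heat shock genes, 5 were negative, including Jun, Fos and Gadd45a (-1.23 ± 0.23), and Klf6 (0.68 ± 0.21) was positive. The counts were 4 and 3 with equal medians, and 1 and 2 with no scaling. Of 18 interferon response genes, 4 were negative (22.2%) and 0 positive, which became 3 and 1 with equal medians and 1 and 1 with no scaling. Of 15 fibroblast and matrix genes, 0 were called, and their summed signal was 11180 to 17710 in whole ganglia and 3537 to 12690 in captured neurons. Of 19 synaptic vesicle genes, 5 were positive (26.3%), including Nsf and Sncb (0.74 ± 0.22), and 2 negative (10.5%, near the share over all genes), Syt2 (-1.12 ± 0.19) and Syt11 (-0.81 ± 0.26). Syt11 was not called with equal medians (adjusted p = 0.0709) or after quantile normalization (adjusted p = 0.0572). Of 11 neuron markers, 2 were positive (18.2%) and 3 negative (27.3%), so that neuron markers as a list did not move 1 way.

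**Figure D5:**
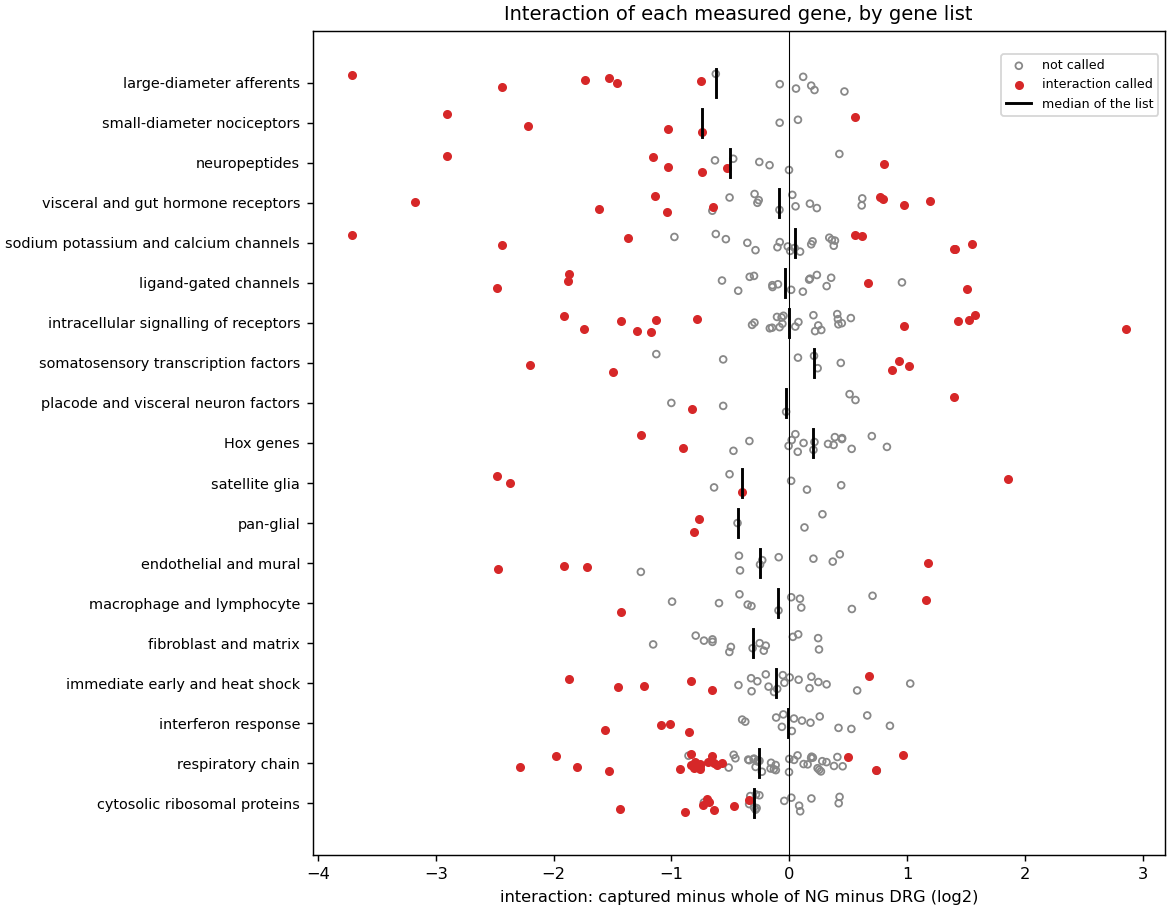
Each point is a measured gene of the list named on the y axis, placed by its interaction (log2, captured minus whole of NG minus DRG); red points passed the threshold, open points did not, and black bars are list medians. Large-diameter afferents, with a median of -0.623, and the respiratory chain, with 17 negative and 3 positive calls of 56, lie mostly to the left.

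The 2 steps behind an interaction could be read separately as captured minus whole within each ganglion. Over all genes, 30.3% fell and 26% rose with capture in NG, and 25.4% fell and 22.9% rose in DRG. Of the 96 genes that reversed toward DRG, 80 fell in NG with capture and 49 rose in DRG, with medians of -1.04 and 0.39. Of the 54 that reversed toward NG, 46 rose in NG and 0 fell there, and 34 fell in DRG, with medians of 0.69 and -0.46. The direction of these medians follows from how the classes were defined. The NG median was the larger in size in both directions. The genes were selected on the same arrays, so nothing is read from that. Among the 284 appeared genes on the negative side, 188 fell in NG, and among the 194 on the positive side, 130 rose in NG.

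The classes differed in how often the captured difference was called on Mouse430_2. The captured difference on MG-U74Av2 entered the definition of the classes. Its medians were -2.23 and 2.25 in the DRG-sided and NG-sided grown genes, and -0.77 and 0.51 in the negative and positive reversed genes. Nothing is therefore read from how the classes rank. Of 83 grown genes measured there, 74 were called with the sign of captured neurons and 0 with the other, and on the unshared numbers 65 and 1. Of 28 shrunk genes, 22 were called with that sign and 0 with the other. Of 462 appeared genes the counts were 237 and 2, and on the unshared numbers 142 and 8. Among the grown genes Scn1a had -2.18 ± 0.33, Tac1 -2.49 ± 0.31, Gfra3 -3.30 ± 0.24, Man1a 3.93 ± 0.23 and Tbx3 3.32 ± 0.22. Of the appeared genes Kcna1 had -3.23 ± 0.16 in the full set and -3.11 on unshared numbers, and Hif1a -0.80 ± 0.19 and -1.04. The captured differences of Npy2r (-1.31 ± 0.42) and Gja1 (-1.15 ± 0.29) were called in the full set but not on unshared numbers, at -0.18 and -0.22.

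Of 383 lost genes measured on Mouse430_2, 311 were not called there, 49 were called with the sign of the uncalled captured difference and 23 with the other. Trpc4 (-0.062 ± 0.35) and Mobp (-0.44 ± 0.26) were not called. Some lost DRG-sided genes were called on the DRG side on Mouse430_2, among them Nsf (-0.71 ± 0.12), Gabra2 (-2.26 ± 0.26) and Cacna2d1 (-1.47 ± 0.19), an auxiliary calcium channel subunit whose interaction was not called without any of 9 arrays. These 3 were also called on the unshared numbers. The whole and the captured comparison on MG-U74Av2 do not share samples, but the captured samples on both array types may. The unshared numbers are the reading that shares no sample number, and the labels do not show that they are different animals.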

How the data were processed

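The authors deposited linear signal intensities per probe set and array, made with MAS5 per the submitters' processing notes, which name no version. The 22 MG-U74Av2 arrays were scaled here to the same 2% trimmed mean. Values were analysed as log2(signal + 11.37), the pseudocount being the 20th percentile, which understates folds of dim genes. Control probe sets (66 of 12488) were left out, and a probe set was tested if it exceeded the array's 40th percentile on 5 arrays or more. No depth exists for arrays, and their number limits the precision. The 4 group means were fitted with limma 3.58.1 in R 4.3.3 (lmFit, then eBayes with a mean trend and robust settings); files were read with the data.table package, version 1.17.8. The fit was tested on simulated data. Gene names came from the platform annotation, in which 10855 probe sets had 1 symbol, 396 several and 1237 none.

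Genes, lists and tests were chosen with earlier results of these data known. Named genes are, per class and sign, up to 6 with the largest interaction whose highest group lay above the median signal of 178.1, up to 3 called members per list and sign, and a set of sensory genes wherever measured. Alternatives were other scalings, pseudocounts, filters, limma models, a replicate block, the beta actin ratio as a covariate, and leaving out each array. Mouse430_2 arrays were scaled and fitted on their own. In the reported fit, samples that share a number were not treated as pairs. Same-numbered deviations from the group means correlated at -0.09 to 0.11. With so few same-numbered samples, this cannot show whether they came from the same animals, and the labels do not say.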

Additional observations from a re-analysis of the deposited data

Results flagged for a closer look

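Of the 26 genes whose signals were given for each group, 11 belonged to the reversed class, where the ganglion difference had opposite called signs in whole and captured samples. Their interactions, which restate values given above, were Prss12 (-2.64), Tob1 (-2.62), Scp2 (-3.23), Itgav (-3.13), Sox2 (-2.48), Cdh5 (-2.47) and Cox7b (-2.29), with DRG gaining on NG, and Adcy8 (2.86), Mef2a (2.26), Rgs7 (1.58) and Xist (2.31), with NG gaining on DRG, all as log2 interactions.

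Among 104 sets of 1 gene in 1 group, 7 had a sample far from the others, and chance gives about 1 in 20. The lowest Tob1 signal of whole DRG was 139.2 (sample number 37). The highest Cdh5 signal of captured DRG was 105.3 (number 14), and the highest Jun signal of captured NG was 196.6 (number 14). The highest Adcy8 signal of whole NG was 219.1 (number 26) and the highest Scn1a signal of whole NG 863.9 (number 73). In captured DRG, the sample numbered 3 had both the highest Mobp signal, 156, and the highest Nsf signal, 1113.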

How the results depend on the processing

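Without scaling, 662 probe sets were called in place of 1512, of which 203 were negative (871 as reported), 44 reversed (177), 287 larger after capture (736) and 287 smaller (508). Over the other alternatives, each of these counts stayed within 1.5 times. Equal medians kept the call and sign of 1261 of the 1512 probe sets and 123 of 177 reversals, quantile normalization 1378 and 145, and the beta actin ratio as a covariate 1412 and 131. Leaving out each array in turn gave 1316 to 1543 called probe sets, 550 to 665 positive, 764 to 882 negative, 136 to 194 reversed, 666 to 757 larger and 421 to 551 smaller. On Mouse430_2, reversed genes with the captured sign fell from 52 to 27 with unshared sample numbers only, a set of fewer arrays. The sample number as a replicate block gave 1486 called probe sets (consensus correlation -0.021), and 53 reversed genes on Mouse430_2. Of the named genes' interactions under alternatives, 4409 kept side and sign, 224 lost the call, 3 gained it and 8 changed sign. The 3 gained calls were all of Cckar. The sign changes were of uncalled genes: Htr3a was -0.15 after quantile normalization, and Gpr65 was -0.15 with the pseudocount at the 40th percentile, -0.025 with the actin covariate and -0.14 to 0.19 on leaving out arrays. With the pseudocount at the 40th percentile, interactions of dim genes shrank by over 1.5 times. Among them, Grik1 (-1.03), Frzb (-1.35), Cux2 (-0.81), Cldn5 (-1.14), C1qa (-0.87), Uqcr11 (-1.16), Ptprz1 (1.20) and Sema3e (0.78) were still called. Hoxd1 (-0.73) shrank as much and lost its call (adjusted p = 0.0591). Lpl (-1.79) also lost its call under that pseudocount (adjusted p = 0.101). The cause of these changes was not tested.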
